A study of Mus musculus with 8 samples.

Results

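Of 185268 open chromatin regions (OCRs) in lung fibroblasts, 5115 (2.76%) held ERVK retrotransposon sequence and no other retrotransposon. An OCR counted as ERVK-only if it was shorter than 1500 bp, shared at least 1 base with an annotated repeat of family ERVK, and shared none with any other LINE, SINE, LTR or Retroposon copy. All coordinates are those of the deposited table, in mouse build GRCm39. Of 9402 OCRs of any length with ERVK bases, 4231 also touched another retrotransposon, and 56 of the other 5171 were 1500 bp or longer.

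The series measured open chromatin by ATAC-seq, in which a transposase cuts accessible DNA and the cut ends are sequenced and counted. The 8 libraries came from primary lung fibroblasts of mice, 4 from cGAS knockouts (KO, 2 labelled female and 2 male) and 4 from wild types (WT, 2 labelled female and 2 male). cGAS detects DNA in the cytosol and, through STING, switches on interferon genes. All cultures were kept at 5% O2 and 5% CO2, and the labels give neither the strain and age of the mice nor how the knockout was made. Libraries are named by genotype, sex label (F or M) and replicate number, such as KO F2. Where the 4 values of a genotype are listed, they run F1, F2, M1, M2. The labels number the libraries but do not state that each came from a separate mouse, so p-values measure the spread between these libraries, which may be technical.

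ERVK elements are relatives of retroviruses whose DNA was copied into the genome. A complete element has coding internal parts between a pair of identical long terminal repeats (LTRs), which carry its promoter and enhancer, and recombination between the LTRs often leaves a solitary LTR behind. In mouse cells most copies are kept silent by DNA methylation and by histone methylation recruited by zinc-finger proteins, and the IAP and ETn/MusD groups of this family still insert new copies in mice.

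Counts in OCRs totalled 28.0 to 55.3 M per library, which was 64.6% to 76.4% of the whole table, and the median ERVK-only OCR held 64.1 counts per library. Across ERVK-only OCRs, Pearson's r of log2 CPM (counts scaled to the TMM-adjusted library size) between libraries was 0.879 to 0.975 within a genotype (12 pairs) and 0.884 to 0.968 across genotypes (16 pairs). KO F2 stood apart from its sex label. The 15 OCRs in the first 2 Mb of the Y chromosome summed to 24.9 CPM in KO F2, against 31.6 to 43.4 CPM in male-labelled libraries, whereas no other female-labelled library exceeded 0.0582 CPM. Results on the sex label are therefore also given without it.

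Most ERVK-only OCRs held LTRs of the RMER and RLTR series, and few held IAP or ETn/MusD sequence. The RLTR names other than RLTR10 and the ETn LTRs made up 2414 of the 5115 OCRs (47.2%), and the RMER names 1782 (34.8%). IAP names accounted for 177 OCRs (3.46%), MMERVK and RLTR10 together for 74 (1.45%), and ETn/MusD for 33 (0.645%). Another 421 OCRs held other ERVK names such as the MLTR11 series, and 214 held names of several of these groups. A single subfamily was present in 4737 OCRs.

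The 12 subfamilies with the most ERVK-only OCRs held 2141 of them (41.9%) as their sole subfamily. RLTR17B_Mm led with 525 OCRs, followed by RLTR20A4 with 288, RMER19B with 276, RMER6A with 157 and RMER6C with 147. RLTR31D_MM, RMER17C, RLTR20C1_MM, RMER19C, RLTR51A_Mm, RMER12C and MLTR11B followed, with 134 to 87 OCRs each. Copy numbers in the genome differ as well, with 51205 annotated copies of RLTR17B_Mm and 4246 of RMER19B.

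The name ERVK-only says which retrotransposon an OCR touches, not how much of it is ERVK sequence. ERVK rows covered a median of 39.4% of the OCR (210 bp, in OCRs with a median length of 487 bp). They covered at least 90% of 1335 OCRs (26.1%) and all of 1049, whereas in 1026 OCRs they covered under 10%. In 837 OCRs fewer than 50 bp were ERVK, and in 135 fewer than 10 bp. Other repeat classes were present in 1363 OCRs (26.6%), most often simple repeats (1084 OCRs).

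The groups differed in how much of the OCR they filled. IAP sequence covered a median of 91.7% of its OCRs, and the centre of the covered part lay a median of 11 bp from the centre of the OCR. Bases of the element outside the OCR do not enter this offset. It is therefore bound to be small where coverage is high and vanishes at full coverage. For RMER the median coverage was 70.6% and the median offset 51 bp. Other RLTR sequence covered a median of 18.2%, with an offset of 156.5 bp. IAP OCRs were thus mostly the element itself, and other RLTR OCRs mostly flanking sequence with a short piece of LTR away from their centre. At least 90% of the OCR was ERVK in 53.7% of IAP, 42.4% of ETn/MusD, 39.5% of RMER and 11.4% of other RLTR OCRs. The 177 IAP OCRs include 18 with IAPEY4_LTR alone and 20 with IAPEY4_I alone, names described below.

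Few of the annotated ERVK copies lay in an OCR, which here means that they shared at least 1 base with it. Of 300845 copies, 5471 (1.82%) lay in ERVK-only OCRs and 9972 (3.31%) in any OCR. RMER copies had the highest share in ERVK-only OCRs (2.71%), followed by other ERVK (1.77%), other RLTR (1.63%), ETn/MusD (1.14%), IAP (1.01%) and MMERVK with RLTR10 (0.744%). Of the 193 IAP copies in ERVK-only OCRs, 44 were of IAPEY4_LTR and 25 of IAPEY4_I, which have only 82 and 402 of the 19128 IAP copies. The place of IAP in this order therefore rests in part on these names. Per megabase of annotated sequence the gap was wider, but a copy counts once whatever its length, so long copies lower this value. Mean copy length was 1274 bp for IAP, 1423 bp for ETn/MusD and 919 bp for MMERVK with RLTR10. It was 472 bp for RMER and 289 bp for other RLTR. RMER had 57.5 copies in ERVK-only OCRs per Mb and other RLTR 56.3, against 7.92 for IAP, 8.005 for ETn/MusD and 8.10 for MMERVK with RLTR10. Counting copies in any OCR, other RLTR had 110.4 per Mb and RMER 95.9, so the order of these 2 groups turned, and IAP had 11.7. LTRs had 54.3 copies in ERVK-only OCRs per Mb and internal parts 10.7, although their shares of copies were close (1.83% and 1.73%). Here too copy length enters, with a mean of 337 bp for LTRs and 1619 bp for internal parts. These are counts over the genome, the same for all libraries, and carry no test. How reads that match several copies equally were placed is not given in these sources. Its part in the differences between groups, here and in the levels below, was not tested.

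Among the 177 ERVK subfamilies with at least 300 copies, the share of copies in ERVK-only OCRs ran from 0 to 6.81%, with a median of 1.59%. The highest shares were those of RMER19B (6.81%), IAPEY4_I (6.22%), RLTR16B_MM (5.90%), RMER17C-int (5.30%), RMER6A (5.16%), RLTR17 (5.00%), RLTR19 (4.93%) and RLTR26_Mus (4.83%). IAPEY4_I, the internal part of an IAP relative, was the 1 IAP name among these 8. At the other end, 6 subfamilies had no copy in an ERVK-only OCR, namely ERVB7_3-LTR_MM, IAP-d-int, IAPEY_LTR, RLTR13C3, RLTR27 and RLTR9C, with 312 to 1137 copies each. Across the 177 subfamilies, Spearman's rho between this share and the median copy length was 0.178, and copies in ERVK-only OCRs had a median of 437 bp, against 313 bp for copies outside OCRs.

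Per megabase of their own sequence, short LTRs of the RLTR series led among subfamilies with at least 300 copies. RLTR20C1_MM had 188 ERVK-only OCRs per Mb, RLTR20A4 166, RLTR31D_MM 156 and RLTR51A_Mm 147, against a median of 34.8 over the 177 subfamilies. Their annotated copies were short, with medians of 73 to 112 bp, against 817 bp for RMER19B.

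**Figure D1:**
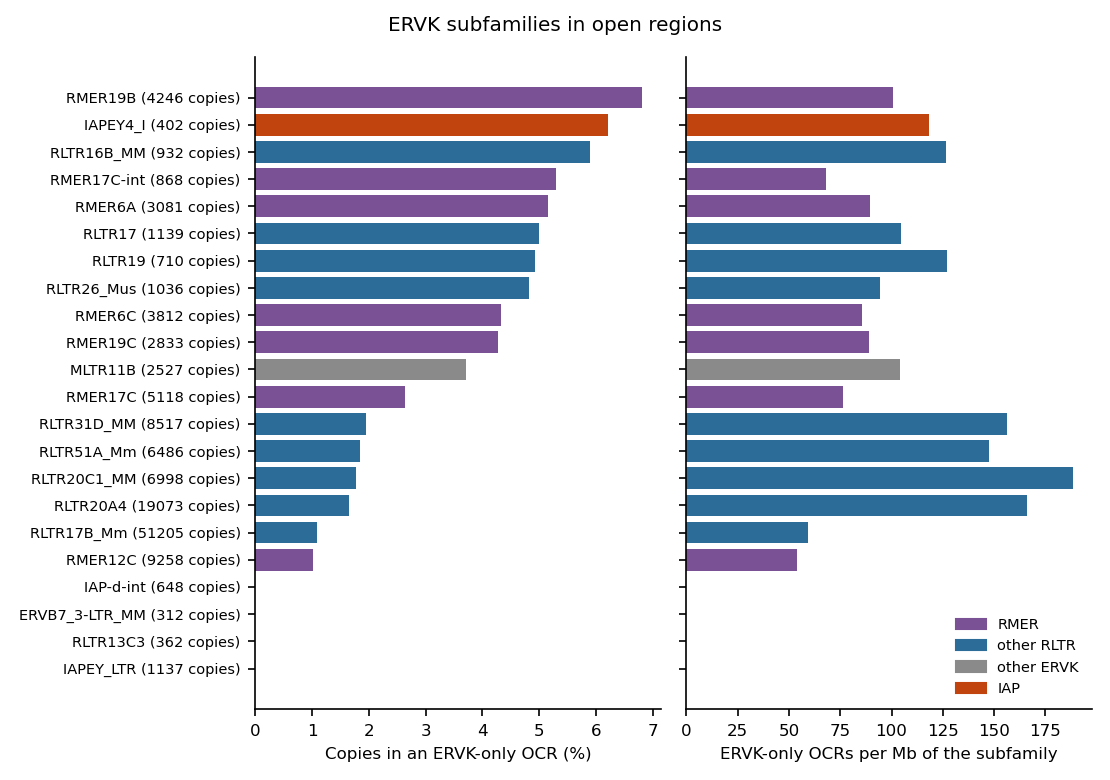
ERVK subfamilies with the most ERVK-only OCRs and with the highest and lowest shares of copies in them, coloured by group. The left bars give the percent of annotated copies that lie in an ERVK-only OCR, led by RMER19B (6.81%), and the right bars the ERVK-only OCRs per Mb of the subfamily, led by RLTR20C1_MM (188).

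Nearly every annotated copy of the IAPEY4 LTR shared bases with an OCR. IAPEY4_LTR has only 82 annotated copies, under the minimum of 300, and was chosen for description after its values were seen. Of these copies, 77 (93.9%) lay in an OCR, and 44 (53.7%) lay in an ERVK-only OCR. Among all 792 retrotransposon subfamilies with at least 50 copies, whose median was 4.76%, this was the highest share in OCRs. The next were RLTR6_Mm (42.2%) and MMVL30-int (35.3%), both of family ERV1.

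The 52 ERVK-only OCRs with IAPEY4_LTR lay on 16 chromosomes, 7 of them on X, and 26 also held IAPEY4_I. ERVK sequence covered a median of 95.8% of them. They averaged 3.89 ± 0.61 CPM per kb (SD over 8 libraries), against 5.05 for all ERVK-only OCRs, both on deposited counts. Their single values ran from 0.283 to 7.54 CPM, with a median of 1.72 CPM. Their summed accessibility was 94.2, 128.0, 113.0 and 146.0 CPM in the KO libraries, against 102.3, 133.2, 136.2 and 107.6 CPM in the WT libraries. KO averaged 120.3 ± 22.0 CPM and WT 119.8 ± 17.3 CPM (SD, n = 4 each), so the genotypes overlapped fully. The most accessible was 7:105601649-105602196 (548 bp, 59.5% ERVK), with 6.78, 7.81, 7.35 and 9.65 CPM in the KO libraries and 6.90, 7.12, 8.13 and 6.57 CPM in the WT libraries. The placing of reads that match several copies equally is not given in these sources, and its part in the IAPEY4_LTR values was not tested.

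ERVK-only OCRs were less accessible than OCRs free of any repeat, as counted in the deposited table. Their mean level was 5.24, 5.00, 5.00 and 4.95 CPM per kb in the KO libraries, and 5.05, 4.96, 5.04 and 5.14 CPM per kb in the WT libraries. ERVK-only OCRs averaged 5.05 ± 0.10 CPM per kb, against 7.45 ± 0.13 for the 69817 repeat-free OCRs under 1500 bp (SD, n = 8 libraries). The ratio of ERVK-only to repeat-free OCRs was 0.678 (0.668 to 0.686) and below 1 in 8 of 8 libraries (exact sign-flip permutation test, two-sided, p = 0.0078, the smallest it can give with 8 libraries). The KO and WT log2 ratios differed by -0.0037, less than their spread (exact permutation test, two-sided, p = 0.686).

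That ratio depends on how read ends were counted. In the deposited table an end that lies in an OCR and in a repeat copy adds 0.5 to each, so ERVK sequence lowers the count of its OCR. For 497 OCRs whose overlapping repeat copies all lie wholly inside, the full counts could be restored, and their ratio to repeat-free OCRs was then 1.12, against 0.966 as deposited. For 945 OCRs that lie wholly inside 1 ERVK fragment, doubling the count gave a ratio of 0.547, against 0.274 as deposited. So OCRs made entirely of ERVK sequence were lower than repeat-free OCRs on the full count too, and OCRs that enclose a whole copy were higher. Neither subset was matched in length to the repeat-free OCRs, and the part of length in their ratios was not tested. For all ERVK-only OCRs, matching by length classes of 100 bp gave 0.650 on deposited counts.

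The level fell in steps with ERVK coverage. OCRs with under 10% ERVK averaged 8.17 ± 0.30 CPM per kb, those with 10% to 50% averaged 6.37 ± 0.13, those with 50% to 90% averaged 3.12 ± 0.10, and those with at least 90% averaged 2.23 ± 0.08 (SD over 8 libraries). The ranges of the 8 libraries did not overlap between any of these classes. The 4 classes are on deposited counts, in which the sharing of ends grows with coverage, and its part in the steps was not tested.

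The 12 most common subfamilies differed in level on deposited counts. RLTR51A_Mm averaged 8.90 ± 0.53 CPM per kb, RLTR20A4 8.01 ± 0.24, RLTR17B_Mm 7.998 ± 0.37 and RMER12C 7.69 ± 0.33 (SD over 8 libraries). The library ranges of the last 3 overlapped one another, and that of RLTR51A_Mm overlapped those of RLTR20A4 and RLTR17B_Mm. Differences within libraries were not tested, nor was the part of shared ends, which grows with coverage. From RLTR51A_Mm to RMER12C, the median ERVK coverage was 9.10% to 13.6%. RMER17C averaged 6.43 ± 0.16 with a median coverage of 24.9%, above RLTR20C1_MM (6.01 ± 0.11, 9.67%) and RLTR31D_MM (5.97 ± 0.13, 11.2%), so the order was not that of coverage throughout. At the low end, RMER6A averaged 3.33 ± 0.19, RMER19B 3.22 ± 0.12, RMER19C 2.85 ± 0.14 and RMER6C 2.28 ± 0.35 CPM per kb, with a median coverage of 87.1% in RMER19C and 100% in the other 3. The 525 RLTR17B_Mm OCRs were thus open regions that contain a short piece of this LTR, and the 276 RMER19B OCRs mostly lay within it.

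Between groups, other RLTR OCRs were the most accessible on deposited counts, with 5.98 ± 0.20 CPM per kb in KO and 6.03 ± 0.13 in WT. RMER OCRs had 4.36 ± 0.10 in KO and 4.35 ± 0.05 in WT libraries, and IAP OCRs 3.47 ± 0.42 in KO and 3.28 ± 0.29 in WT cultures (SD, n = 4 each). IAP OCRs also varied most between libraries, with 3.96 CPM per kb in KO M2 as the highest and 2.96 in WT F1 as the lowest. Median ERVK coverage was 18.2% in other RLTR, 70.6% in RMER and 91.7% in IAP OCRs. The sharing of ends thus differed between groups, and its part in their order was not tested.

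**Figure D2:**
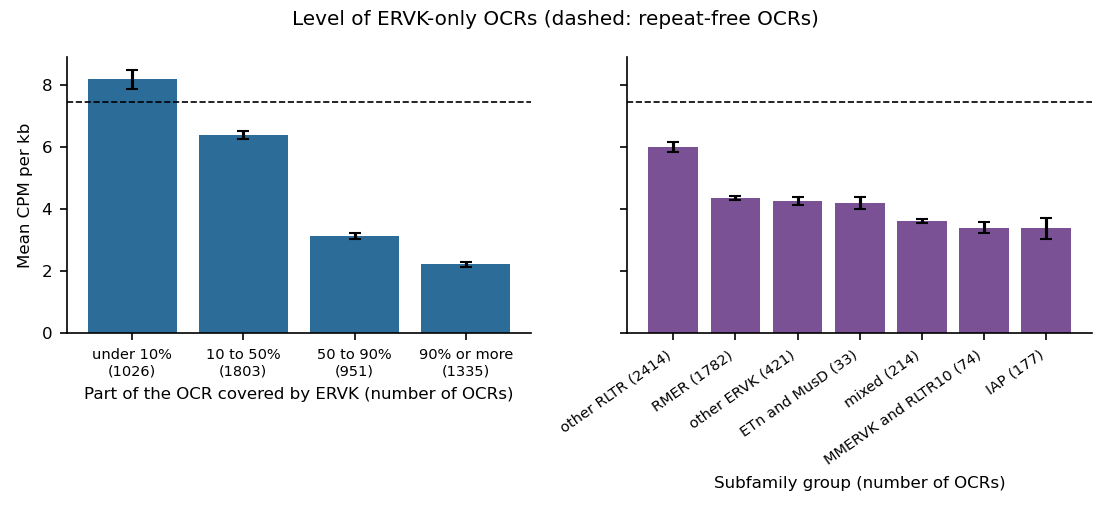
Mean accessibility in CPM per kb of ERVK-only OCRs by the percent of the OCR that is ERVK (left) and by subfamily group (right), as the mean of 8 libraries with bars for the SD, and a dashed line for repeat-free OCRs (7.45). The level is 8.17 in OCRs with under 10% ERVK, above the dashed line, and 2.23 in those with at least 90%, and every group lies below the line. All levels are on deposited counts, in which an end in a repeat copy is shared with that copy.

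Single ERVK-only OCRs ranged from 0.165 to 73.5 CPM (median 1.47, against 2.33 for all OCRs), and 405 exceeded 10 CPM. The most accessible was 17:34822372-34823495, with 115 bp of RLTR20A4 (10.2% of its 1124 bp). It had 69.4, 74.2, 67.2 and 86.6 CPM in the KO libraries, against 60.0, 79.4, 85.6 and 65.8 CPM in the WT libraries, and it ranked 97th among all OCRs. KO M2 was highest and WT F1 lowest, and the genotypes overlapped.

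The other 7 of the 8 most accessible ERVK-only OCRs averaged 63.0 to 43.1 CPM and held between 0.61% and 32.4% ERVK. They were 1:183765470-183766950 (RLTR31D_MM and RLTR51A_Mm), 11:88071226-88072627 (RLTR20A4), 6:47661982-47663376 (RMER12B), 8:127565715-127566857 (RMER12C), 11:16541370-16542606 (RLTR20A4, RLTR51A_Mm and RMER17C), 15:77682787-77683440 (RLTR17B_Mm) and 2:121278719-121280002 (RLTR51A_Mm). Only 15:77682787-77683440 held more than 200 bp of ERVK (212 of 654 bp). It had 49.6, 42.4, 49.1 and 42.0 CPM in the KO libraries and 43.5, 38.2, 41.1 and 46.5 CPM in the WT libraries, which overlapped.

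The most accessible OCRs of other common subfamilies were lower. For RMER6A this was 19:41924211-41924822 with 24.9 CPM, for RMER6C 10:115197946-115199418 with 19.3 CPM, and for RMER17C 4:154041198-154042550 with 34.0 CPM. For RLTR31D_MM it was 2:27331779-27333163 with 32.3 CPM, and for RLTR20C1_MM 9:50638962-50639891 with 17.1 CPM. RMER6C filled 34.8% of its OCR, and each of the others at most 11.1%. On deposited counts, the most accessible OCR of a subfamily thus usually held little of it. In each of these OCRs the KO and WT libraries overlapped.

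Inside an OCR, the ERVK copy was cut less often per kb than the rest of the region. For 483 ERVK-only OCRs with a whole copy of at least 50 bp and at least 50 bp of other sequence, cuts in the copy and in the rest could be counted apart, with 20821 to 41261 cuts in copies per library. Copies had 8.03, 8.27, 7.94 and 8.07 CPM per kb in the KO libraries, and 7.62, 7.87, 8.15 and 7.90 in the WT libraries. The rest of the same OCRs had 9.77, 9.76, 9.69 and 9.62 CPM per kb in the KO libraries and 9.32, 9.85, 10.3 and 10.2 in the WT libraries. The ratio of copy to rest was 0.813 (0.772 to 0.847) and below 1 in 8 of 8 libraries (exact sign-flip permutation test, two-sided, p = 0.0078, the smallest it can give).

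The direction of this ratio differed with the position of the copy. It was 1.38 for 112 OCRs whose copy centre was within 50 bp of the OCR centre, 1.03 for 95 OCRs at 50 to 100 bp, and 0.658 for 276 OCRs at over 100 bp. By group, the ratio was 0.774 for other RLTR copies (316 OCRs), 0.837 for RMER copies (110) and 1.16 for other ERVK copies (34). ERVK copies near the centre of the OCR were cut more than the rest of the region, and those far from it less.

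In the OCRs where copies could be counted apart, ERVK copies were also cut less, relative to the rest, than copies of other retrotransposons. The test compares fixed sets of OCRs across libraries, so its p-values do not measure the spread between OCRs, and copy length was not matched. The ratio of copy to rest was 0.813 for ERVK, against 0.889 (0.877 to 0.908) for 16227 OCRs with other retrotransposons, lower for ERVK in 8 of 8 libraries (exact sign-flip permutation test, adjusted p = 0.0104 over 4 tests). At 50 to 100 bp from the centre the ratios were 1.03 for ERVK and 1.21 for other retrotransposons, and beyond 100 bp 0.658 and 0.777, each with an adjusted p of 0.0104 in the same permutation test. Within 50 bp they were 1.38 for ERVK and 1.35 for other retrotransposons, a difference that did not pass the same permutation test (0.03 ± 0.06 on the log2 scale, SD, n = 8, higher in 5 of 8, p = 0.234).

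The KO and WT ratios of copy to rest barely differed. Their log2 values were -0.28, -0.24, -0.29 and -0.25 in the KO libraries and -0.29, -0.32, -0.34 and -0.37 in the WT libraries, so all 4 KO values lay above all 4 WT values. The difference was 0.07 on the log2 scale (exact permutation test, two-sided, p = 0.0286, the smallest that 4 against 4 libraries allow), and its adjusted p over 10 such tests was 0.286. With 1 library left out the difference was 0.0520 to 0.0795, with p = 0.0571 in the exact permutation test without any 1 KO library, although the remaining KO values still lay above all WT values.

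**Figure D3:**
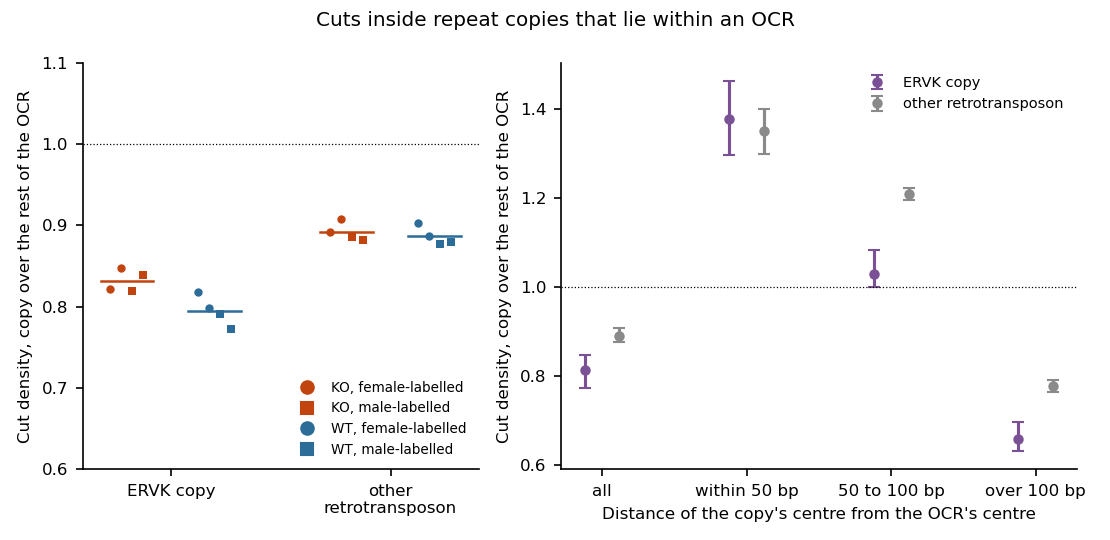
Ratio of cuts per kb in the copy to cuts per kb in the rest of the same OCR. On the left, each point is 1 library and lines are genotype means, with KO left of WT, for ERVK copies (0.772 to 0.847) and other retrotransposons (0.877 to 0.908). On the right, points are means over 8 libraries and bars run from the lowest to the highest library, by distance between the copy centre and the OCR centre, with ERVK copies at 1.38 within 50 bp and 0.658 beyond 100 bp.

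The question raised by the series' design is whether loss of cGAS opens or closes chromatin, and for ERVK-only OCRs as a whole no change was detected. They held 1.78%, 1.74%, 1.77% and 1.70% of OCR counts in the KO libraries, and 1.80%, 1.74%, 1.73% and 1.79% in the WT libraries. KO averaged 1.75% ± 0.036 and WT 1.77% ± 0.034 (SD, n = 4 each), so the fold of KO over WT was 0.989 (0.947 to 1.03 at 95%; two-sided exact permutation test, p = 0.486). The groups overlapped, and the 4 highest values were those of KO M1, KO F1, WT M2 and WT F1.

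Nor did the share of any subfamily group pass the test. IAP OCRs held 0.0358%, 0.0423%, 0.0382% and 0.0451% of OCR counts in the KO libraries, against 0.0357%, 0.0416%, 0.0402% and 0.0368% in the WT libraries. The fold was 1.05 (0.860 to 1.26), with the highest values in KO M2, KO F2, WT F2 and WT M1, the 4 libraries that were lowest for ERVK-only OCRs as a whole. RMER held 0.516% ± 0.009 in KO and 0.520% ± 0.012 in WT, and other RLTR 0.994% ± 0.026 in KO and 1.01% ± 0.022 in WT cultures (SD, n = 4 each). The adjusted p over the 7 groups was 0.857 for other ERVK and 0.70 for each of the others (exact permutation tests). OCRs with at least 90% ERVK had a fold of 1.03 (0.948 to 1.11) and those with under 10% a fold of 0.975 (0.909 to 1.02), both with p = 0.286 in the exact permutation test.

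**Figure D4:**
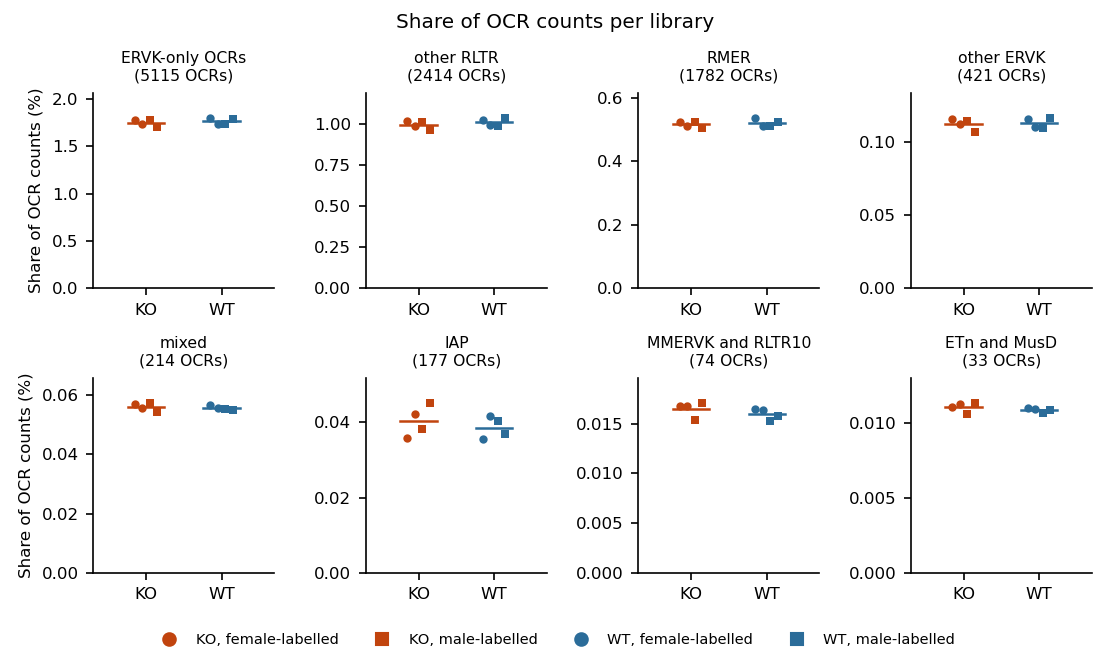
Percent of OCR counts in all ERVK-only OCRs and in each subfamily group, 1 point for each library, KO left of WT, with a line for the mean of each genotype. KO and WT overlap in every panel, and all ERVK-only OCRs together lie between 1.70% and 1.80%.

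No single ERVK-only OCR passed an adjusted p of 0.05 between KO and WT in edgeR's quasi-likelihood test (0 of 5115, lowest adjusted p 0.323), and none did among all OCRs (0.0% called). At an unadjusted p under 0.05 there were 475 (9.29%), 312 higher and 163 lower in KO, against a background of 9.88% over all OCRs. KO and WT libraries did not overlap in 284 OCRs (5.55%), against 5.98% of all OCRs. By DESeq2 with the same design, 55 ERVK-only OCRs (1.08%) passed, 42 higher and 13 lower in KO, against 1.48% of all OCRs (2306 higher and 433 lower). DESeq2 gave an adjusted p to 4078 of the 5115 ERVK-only OCRs and to 170900 of all 185268. Both percentages count OCRs without an adjusted p as not passed. Of the 55, 30 held other RLTR and 18 RMER sequence, and 2 held IAP. These were 1.24% of other RLTR, 1.01% of RMER and 1.13% of IAP OCRs, each under the 1.48% of all OCRs. By limma voom with sample weights none passed, also against 0.0% of all OCRs. In the limma fit 727 (14.2%) had an unadjusted p under 0.05, against 15.3% of all OCRs. On simulated counts of 9000 OCRs drawn from all OCRs, fewer than the table holds, the edgeR test recovered 18.9% of 2-fold and 80.0% of 4-fold changes. Most changes of 2-fold or less in single OCRs were thus out of its reach there, and 6 of its 69 calls were false.

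The median log2 fold change of KO over WT was 0.00 for ERVK-only OCRs and 0.00 for all OCRs. Among groups it was 0.09 for IAP, 0.03 for other ERVK, and -0.01 for both RMER and other RLTR. All 10 IAP OCRs at an unadjusted p under 0.05 were higher in KO, but they were 5.65% of the IAP OCRs, less than the background of 9.88%. MLTR11B, an LTR among the other ERVK names, had 15 of 87 OCRs higher and 1 lower at an unadjusted p under 0.05 (18.4%). It is named because this share was the highest of the 12 common subfamilies, and its median was 0.08. KO and WT libraries did not overlap in 6.90% of its OCRs, against 5.98% of all OCRs, and DESeq2 called 1 of the 87. The sum over its OCRs had a log2 fold change of only 0.01. Its OCRs were measured in the same libraries, so they are not independent replicates. RMER6A (-0.13) and RLTR51A_Mm (-0.11) had the lowest medians of the 12 common subfamilies. OCRs with at least 90% ERVK had 86 higher and 23 lower at this level (8.16% of them), and those with under 10% had 52 higher and 47 lower (9.65%). Over all OCRs there were 11903 higher and 6393 lower, so more calls higher in KO were not particular to ERVK-only OCRs.

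For each direction, the 5 OCRs of lowest p are given by their values, since none passed (edgeR adjusted p = 0.323 for each). The first was 7:44403325-44403667, a 343 bp OCR with 57 bp of RMER19A. It had 2.28, 2.62, 1.34 and 2.92 CPM in the KO libraries, and 1.00, 0.87, 0.49 and 0.41 CPM in the WT libraries. The groups did not overlap, and the log2 fold change was 1.80 ± 0.33 (SE; DESeq2 adjusted p = 0.0023).

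At 3:131756644-131757227, of which 81.2% was RMER19C, the KO libraries had 1.70, 1.36, 1.54 and 1.52 CPM and the WT libraries 0.66, 0.70, 0.44 and 0.49 CPM. Its log2 fold change was 1.41 ± 0.28 (SE; DESeq2 adjusted p = 0.0065), with no overlap. The OCR 5:105301851-105302375 consisted wholly of RLTR13D3 and had 0.99, 1.11, 1.14 and 1.13 CPM in the KO libraries and 0.49, 0.41, 0.10 and 0.23 CPM in the WT libraries. Its log2 fold change of 1.94 ± 0.42 (SE; DESeq2 adjusted p = 0.0114) was the highest of the 10, at a mean of only 29.7 counts per library.

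The other 2 OCRs higher in KO held almost no ERVK sequence. At 10:95344511-95345054, with 4 bp of RLTR20A3_MM, KO libraries had 7.45 to 9.51 CPM and WT libraries 3.78 to 6.59 CPM (log2 fold change 0.79 ± 0.16). At 12:107611464-107612153, with 2 bp of RLTR17B_Mm, KO libraries had 4.09 to 5.88 CPM and WT libraries 2.15 to 2.63 CPM (0.98 ± 0.21). They count as ERVK-only by the rule, yet over 99% of each was other sequence.

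Among OCRs lower in KO, 5:73858340-73859720, with 9 bp of RLTR51A_Mm in 1381 bp, was the most accessible. It had 16.9, 16.1, 19.97 and 13.6 CPM in the KO libraries and 21.0, 32.5, 40.7 and 29.1 CPM in the WT libraries, with no overlap and a log2 fold change of -0.87 ± 0.19 (SE; DESeq2 adjusted p = 0.0119). The RMER17B2 OCR 11:83570228-83570764, 92.2% ERVK, had 0.71, 0.70, 1.01 and 0.77 CPM in the KO libraries and 1.71, 1.32, 2.18 and 2.10 CPM in the WT libraries (-1.17 ± 0.25). At 11:88857611-88858172, with RMER6BA and MYSERV6-int, the KO libraries had 1.25, 1.45, 2.13 and 1.92 CPM and the WT libraries 2.42, 3.84, 4.10 and 3.64 CPM (-1.06 ± 0.23). None of these groups overlapped.

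The last 2 were low in every library. At 17:9494468-9494926, with RLTR13D2, KO libraries had 0.22 to 0.34 CPM and WT libraries 0.67 to 0.89 CPM (-1.48 ± 0.32). At 16:29924232-29924675, with RLTR17B_Mm, KO libraries had 0.17 to 0.76 CPM and WT libraries 0.73 to 1.57 CPM (-1.52 ± 0.34). Of the 10 OCRs, 16:29924232-29924675 was the 1 in which the groups overlapped.

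**Figure D5:**
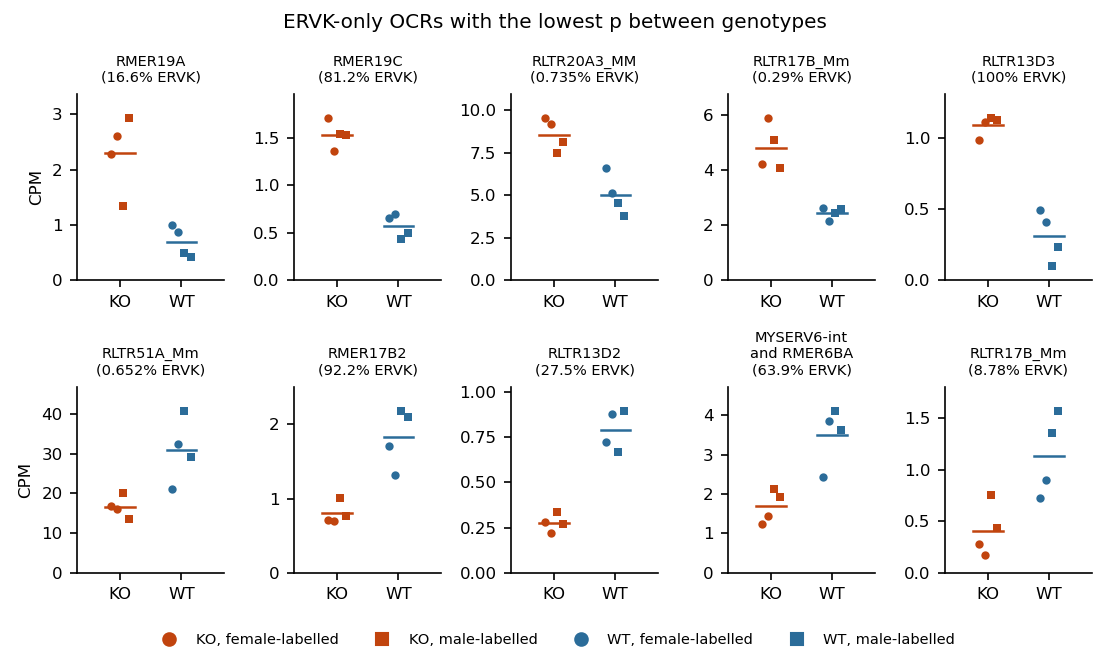
CPM in each library of the 5 ERVK-only OCRs of lowest p for each direction (upper row higher in KO, lower row lower in KO), KO left of WT, with a line for each genotype mean and the subfamily above each panel. In 9 of the 10 the KO and WT points do not overlap, and none passed an adjusted p of 0.05 in edgeR.

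Subfamilies were also compared as sums over their OCRs. None of the 95 ERVK subfamilies with at least 10 OCRs of their own passed in edgeR's quasi-likelihood test (lowest adjusted p 0.308), against 0.0% called among all 430 retrotransposon subfamilies. At an unadjusted p under 0.05 there were 4 of 95, against 5.35% of the 430. The sum was higher in KO for 57 of the 95 (60.0%), with a median log2 fold change of 0.01, and for 235 of the 430 (54.7%). Without KO F1 it was higher for 41 of the 95, with a median of -0.01. On simulated sums of 430 subfamilies, of which 200 were changed, this test recovered 79.4% of 1.2-fold and 97.3% of 1.5-fold changes. With so many changed sums the adjusted threshold is laxer than in the real fit, so these rates do not carry over to it. By DESeq2, RLTR45 alone passed (adjusted p = 0.0232, 1 of 95), against 0.93% of all 430 subfamilies, and by limma voom none did (11 of 95, 11.6%, at an unadjusted p under 0.05, against 9.07% of the 430).

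RLTR45 had the lowest p. Its 10 OCRs summed to 18.8, 26.5, 15.1 and 27.4 CPM in the KO libraries, against 13.5, 15.8, 12.1 and 7.92 CPM in the WT libraries. KO M1 lay below WT F2, so the groups overlapped, and the log2 fold change was 0.85 ± 0.22 (SE, edgeR adjusted p = 0.308). RLTR12BD_Mm (0.33) and BGLII (0.28) were the next higher in KO. Lower in KO by the same rule were RLTR51A_Mm (-0.12 ± 0.05), RMER17A (-0.13) and IAPLTR1_Mm (-0.14), with edgeR adjusted p-values of 0.776 or more.

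RLTR17B_Mm, RLTR20A4 and RLTR51A_Mm had the largest sums of the 95. The 525 RLTR17B_Mm OCRs averaged 2715 ± 141 CPM in KO and 2807 ± 124 in WT, and the 288 RLTR20A4 OCRs 1734 ± 42.0 in KO and 1792 ± 75.5 in WT cultures (SD, n = 4 each). The RLTR51A_Mm OCRs averaged 644 ± 14.2 in KO and 703 ± 49.5 in WT cultures, and this sum had the lowest p of those lower in KO. RMER19B, the commonest RMER subfamily, had 467 ± 26 in KO and 456 ± 15 in WT cultures. Only 1 of the 95 subfamilies (1.05%) did not overlap between genotypes, against 4.65% of all 430. This was MurERV4-int, chosen after its values were seen, with 11.4, 11.6, 11.1 and 13.04 CPM in the KO libraries and 10.8, 10.4, 9.29 and 8.76 CPM in the WT libraries (log2 fold change 0.27, edgeR adjusted p = 0.821).

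No ERVK-only OCR passed between male-labelled and female-labelled libraries in edgeR's quasi-likelihood test, against 0.0% of all OCRs, and 61 had an unadjusted p under 0.05 (0.996% of all OCRs did). DESeq2 called 3 (0.0113% of all OCRs), all on X with starts within 13.6 kb. Each held 51 bp of RLTR20C2_MM, only 6.43% to 6.76% of the OCR. At X:74787918-74788671, named after its values were seen, male-labelled libraries had 0.77 and 2.04 CPM in KO and 0.47 and 0.51 CPM in WT, and female-labelled libraries had 9.16 and 3.92 CPM in KO and 6.30 and 8.94 CPM in WT. At X:74792770-74793550, male-labelled libraries had 0.90 and 1.67 CPM in KO and 0.45 and 0.57 CPM in WT, and female-labelled libraries had 10.1 and 3.41 CPM in KO and 7.29 and 9.38 CPM in WT. At X:74801498-74802290, male-labelled libraries had 0.37 and 0.75 CPM in KO and 0.55 and 0.57 CPM in WT, and female-labelled libraries had 5.98 and 1.49 CPM in KO and 4.45 and 3.89 CPM in WT.

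In all 3 the male-labelled libraries lay below the female-labelled libraries, among which KO F2 was the lowest. Without KO F2, edgeR called X:74792770-74793550 and X:74801498-74802290 (log2 fold changes of male over female -3.59 and -3.10, adjusted p = 0.0176 and 0.0276). It also called Y:1115446-1115884, with RMER17C-int, higher in male-labelled libraries and named after its values were seen. These were 3 of the 15 OCRs called over all OCRs (0.0081%), of which 8 lay on X within 29.8 kb and 7 on Y. On autosomes the lowest p higher in male-labelled libraries were those of 9:102798977-102799532 (RLTR20A3_MM), with 4.76 ± 1.36 CPM in male-labelled and 2.83 ± 0.90 in female-labelled libraries (SD, n = 4 each), and 16:29924232-29924675 (RLTR17B_Mm), with 1.03 ± 0.53 and 0.52 ± 0.35. In both the 2 sexes overlapped. The interaction of genotype and sex label passed for no ERVK-only OCR, against 0.0% of all OCRs, and 68 (1.33%) had an unadjusted p under 0.05, against 1.55% of all OCRs.

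At the length limit, accessibility overlapped between the OCRs on either side. The longest ERVK-only OCRs inside it were 9:111267851-111269349 (1499 bp, 5.91 CPM), 2:148573306-148574802 (1497 bp, 29.3 CPM) and 1:134333027-134334521 (1495 bp, 27.7 CPM, with the ETn LTR RLTRETN_Mm). The shortest beyond it were 15:71761325-71762833 (1509 bp, 5.42 CPM), 17:75823156-75824668 (1513 bp, 8.31 CPM) and 9:99527356-99528869 (1514 bp, 20.4 CPM).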

How the data were processed

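The authors deposited 1 table of estimated counts for 8 ATAC-seq libraries. Per the file headers, featureCounts 2.0.3 counted 5' read ends of properly aligned pairs over peaks (OCRs) and repeat annotations together, an end in several regions adding an equal fraction to each. Build GRCm39, Bowtie2, MACS2, Picard, SAMtools, bedtools and Trim Galore are named in the submitters' processing notes. The treatment of reads with several equal matches is not given in the sources used here.

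OCRs were intersected with repeat rows by coordinates. Estimated counts were rounded and fitted over all OCRs with edgeR 4.0.16 in R 4.3.3 (quasi-likelihood test, robust, TMM, filterByExpr, sex label as covariate, Benjamini-Hochberg over all OCRs); all 5115 ERVK-only OCRs passed the filter. Sums per subfamily were fitted over the 430 retrotransposon subfamilies with at least 10 OCRs that hold that subfamily alone. For shares and ratios, two-sided exact permutation tests used all 70 ways to divide 8 libraries into 4 and 4 (smallest p 0.0286), or by sign flips over 8 libraries (smallest p 0.0078). Fold intervals came from inverting the permutation test at 95%. In the cut density, the count of a repeat row inside an OCR was doubled, since it holds 0.5 of each end. Intervals and depths cover counting error and library spread only. Where sets of OCRs are compared within libraries, the p-values do not measure the spread between OCRs. DESeq2 1.42.0, limma 3.58.1, other scalings, filters, memberships and left-out libraries were the alternatives. The tests were checked on simulated counts.

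The members, lists and tests were chosen with earlier results of these data known. Regions named are the 5 with the lowest p in each direction between genotypes, the 8 with the highest CPM, the OCR with the highest CPM of each of the 8 commonest subfamilies, the 2 with the lowest p in each direction between sex labels, and the 3 nearest the length limit on each side. Subfamilies named are the 12 commonest, those with the 8 highest and 4 lowest shares of copies (6 tie at 0 and all are named), and the 3 with the lowest p in each direction. Internal parts are names with -int, ending in _I or holding -I_, with the patterns other than -int added after seeing the names. The region named for RMER19B, the sequences of OCRs, motifs, nearby genes and the Cgas locus are not reported here.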

Additional observations from a re-analysis of the deposited data

Results flagged for a closer look

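Among 132 groups of 4 libraries, 4 had a library far from the other 3 by Dixon's test at the 95% level, and chance flags about 1 in 20 groups. KO F1 had the highest mean level of ERVK-only OCRs, 5.24 CPM per kb, against 4.95 to 5.00 in the other KO libraries. At 11:88071226-88072627 (RLTR20A4), KO M1 had 56.1 CPM, against 51.1 to 51.4 in the other KO libraries. At 5:105301851-105302375 (RLTR13D3), KO F1 had 0.990 CPM, against 1.11 to 1.14 in the other KO libraries. At 9:99527356-99528869 (RMER17C2, just over the length limit), WT F1 had 16.5 CPM, against 23.1 to 24.0 in the other WT libraries.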

How the results depend on the processing

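Over all alternatives, 292 values kept their direction and their side of the threshold, or their count of calls. Of the others, 11 reversed direction, 15 were stronger and 9 weaker. The ratio of ERVK-only to repeat-free OCRs turned to 0.16 (log2) with restored counts and to 0.44 in an upper limit that doubles every count, the second by construction. Restoring counts also limits the OCRs to 497, which stood at -0.05 on deposited counts. The cut density ratio was 0.46 (log2) for copies within 50 bp of the OCR centre. The KO minus WT difference of that ratio did not pass as a median over OCRs (0.0949, p = 0.257), within 50 bp (0.0936, p = 0.0571), at 50 to 100 bp (0.0225, p = 0.571), beyond 100 bp (0.0655, p = 0.114) or without any 1 KO library, and ranged from 0.0520 to 0.0795 over all left-out libraries (exact permutation tests); the cause was not tested.

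Differences between genotypes in the share of OCR counts (percentage points, KO minus WT) changed sign as follows, none past the threshold. RMER came to 0.0692 and other ERVK to 0.0246 as shares of ERVK-only counts, and other ERVK to 5.1e-05 with at least 10% coverage. Leaving out each library gave -0.0077 to 0.00049 for RMER (positive without WT F1), -0.0018 to 0.0011 for other ERVK (positive without KO M2, WT F1 or WT M2) and -5.1e-05 to 0.00096 for mixed OCRs (negative without KO M1). ETn/MusD ranged from 0.00011 to 0.00034 and passed without KO M1 (p = 0.0286, exact permutation test). DESeq2 called 55 OCRs between genotypes, 3 between sex labels and 1 subfamily, where edgeR called 0 each, and leaving out 1 library gave 0 to 3 OCRs between sex labels (3 without KO F2). Leaving out 1 library gave no call between genotypes in edgeR.

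Same-numbered libraries did not deviate together throughout (r of 0.602 and 0.628 for the female-labelled and -0.303 and -0.463 for the male-labelled numbers), so the numbers were not taken as pairs. With a replicate block, the share of ERVK-only OCRs differed by -0.0186 percentage points (exact sign-flip permutation test, p = 0.625), the cut density ratio by 0.0658 (p = 0.125, the smallest that 4 pairs allow), and edgeR called 0 OCRs and 0 of 95 ERVK subfamilies, against 3 (0.698%) of all 430 subfamilies. With 4 libraries a genotype and a median of 64.1 counts in an OCR, most changes of 2-fold or less in single OCRs were not detectable.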
